A study of Mus musculus with 8 samples.

Results

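The genes described here are 9 members of the Hedgehog pathway, Shh, Ptch1, Smo, Gli1, Gli2, Gli3, Hhip, Boc and Cdon, in embryonic mouse midbrain dopaminergic neurons. They were found as the 10 probes that carry 1 of these symbols in the deposited annotation, out of 55681 probes on the array, which name 24534 genes. The 9 genes were chosen by pathway membership with measured values of these data in view, namely their log2 ratios to a Gfp-negative reference and their levels in both channels in rostral and caudal pools. Every value of a member is therefore given as a description, with no p-value. Where a member is said to be called or not called at a threshold, that too is only a description. Smo, Hhip and Cdon each have another probe, 3 in all, that the annotation table does not list and that is named only by its RefSeq accession. Those probes are outside the rule and are marked as such.

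All pools came from E14.5 mouse embryos of the genotype Pitx3(gfp/+), in which 1 allele of the transcription factor gene Pitx3 carries Gfp, so that fluorescence follows Pitx3 expression. No pool came from embryos with an unaltered Pitx3 locus. The ventral midbrain was divided into a rostral and a caudal part, dissociated with papain and sorted, giving 4 rostral and 4 caudal pools of Gfp-positive cells, each from 5 to 7 embryos drawn from several litters. On each 2-colour array the pool carried Cy3 and was set against a common reference in Cy5, the Gfp-negative cells of the same embryos, also Pitx3(gfp/+). Sorting was done on either of 2 instruments, and the labels do not say which served which pool. The series title names subset specification of dopaminergic neurons as its subject, in view of their vulnerability in Parkinson's disease.

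Hedgehog signalling works by relief of inhibition. The secreted ligand Sonic hedgehog binds the receptor Patched, which then no longer holds back the transducer Smoothened, and at the primary cilium the Gli transcription factors are turned from repressors into activators. Ptch1, Gli1 and Hhip are themselves induced by the pathway and serve as its usual readouts. In the ventral midbrain the ligand is made by the floor plate, the tissue from which dopaminergic neurons arise.

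The sorted pools carried the markers of their labelled cell type. All 6 dopaminergic markers examined were higher than the reference (median log2 ratio 3.67), with Th at 3.34 and Slc6a3 at 5.98. Pitx3, at 3.58, checks only the sort. By array, 62.5% to 70.4% of probes exceeded background clearly for the sorted cells and 54.0% to 63.5% for the reference, and the log2 ratios of any pair of arrays correlated across probes at 0.78 to 0.87. Only 4 of 32192 probes tested differed between rostral and caudal arrays in the reference channel (limma, adjusted p below 0.05). The number of arrays limits the precision of all values. Because these are bulk pools, fewer cells of a type and less RNA per cell cannot be told apart.

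Of the 9 genes, 8 had a probe that could be tested against the reference, and all 8 were called, meaning a limma adjusted p below 0.05, 6 lower and 2 higher (Shh and Cdon) in Gfp-positive cells. The call of Cdon was lost in 8 of 18 alternatives. The log2 ratio is the level in a sorted pool over that in the reference, so 0 means an equal level. Over all 37894 probes tested, 67.7% were called, 32.7% lower and 35.0% higher, and since this contrast was among the values known when the genes were listed, nothing is read from the count. All 8 ratios lay on 1 side of 0 for 7 of the 8 genes, which held for 48.6% of all probes tested. The median ratio of the 8 genes was -1.78, against 0.03 over all probes tested. In rostral against caudal pools 6 of the 9 genes could be tested, and 1 of them was called, higher in the caudal pools. Over all 36852 probes tested there, 3.35% were called, 1.83% with the rostral and 1.53% with the caudal pools higher. The levels in both parts were also known when the genes were listed, so nothing is read from this count either. The median rostral minus caudal difference of the 6 genes was -0.18, against -0.00 over all probes tested.

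**Figure D1:**
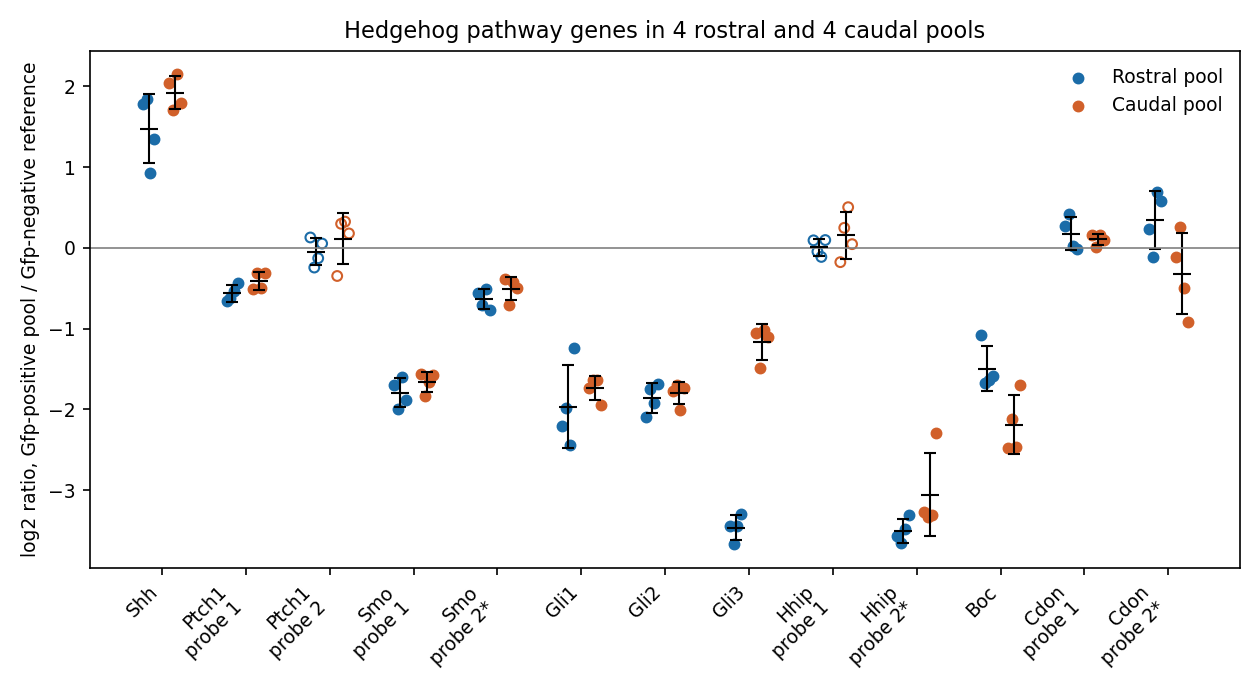
Log2 ratio of each Gfp-positive pool to the Gfp-negative reference (vertical axis) for every probe of the 9 genes (horizontal axis), in 4 rostral and 4 caudal pools, with bars for mean ± SD. Open circles are probes well above background on fewer than 4 of 8 arrays in both channels, and an asterisk marks a probe outside the rule. Gli3 stands at -3.67 to -3.29 in rostral and -1.49 to -1.01 in caudal pools, and Shh lies above 0 in all 8.

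Shh, the ligand, was higher in the sorted neurons than in the reference. Its log2 ratios were 1.78, 1.84, 0.93 and 1.35 in rostral pools 1 to 4 and 2.04, 1.71, 2.15 and 1.79 in caudal pools 1 to 4. All 8 lay above 0, and the parts overlapped, with rostral pools 3 and 4 below every caudal pool and rostral pools 1 and 2 among them. The mean over both parts was 1.70 (SE 0.11, n = 8 pools), a 3.24-fold higher level than in the reference. In the Feature Extraction processed signals, a scanner-software alternative, the same mean was 2.32. The probe is printed in 10 spots on each array, and the SD over the 8 to 10 spots used was 0.09 to 0.20. That lay below the SD of 0.43 between the 4 rostral pools. The SD between the 4 caudal pools was 0.21. Each pool's value is a mean over its spots, which varies less than single spots do, so the SDs between pools and over spots are not like for like. The rostral minus caudal difference was -0.44 (SE 0.22), and it was -0.06 among the 4 arrays in row 1 of the slide and -0.83 among the 4 in row 2.

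The other genes for making and releasing Hedgehog ligands went both ways. Of 8 such genes tested against the reference, limma called 3 lower and 2 higher. Dhh, the Desert hedgehog ligand, was at -1.88 (SE 0.18, adjusted p = 1.17e-05), with -3.10 in the Feature Extraction processed signals, and Ihh, the Indian hedgehog ligand, at -0.23 (adjusted p = 0.00185). Disp2, a relative of the ligand-releasing transporter Disp1, was at 1.18 (SE 0.03, adjusted p = 2.15e-09), and Scube3, of a family of secreted proteins that help release the ligand, at 0.66. Scube2 of the same family was at -2.65 (SE 0.13, adjusted p = 1.16e-07), but another of its probes gave 0.10 (adjusted p = 0.185). Between the parts, 1 of the 8 was called. Hhat, the acyltransferase that attaches palmitate to the ligand, had ratios of -0.51, -0.09, -0.50 and -0.23 in rostral and 0.29, 0.66, 0.29 and 0.76 in caudal pools. The groups did not overlap, and Hhat was 1.78-fold higher in the caudal pools (-0.83, SE 0.15, limma adjusted p = 0.020). That call was lost with median centring and without rostral pool 3, caudal pool 2 or caudal pool 4 (limma adjusted p = 0.0558, 0.0552, 0.0559 and 0.0581, over all alternatives 0.0131 to 0.341). Another probe of Hhat gave -0.10 (adjusted p = 0.786).

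Ptch1, the receptor that holds back Smoothened and a target of the pathway, was dim in the sorted cells. Its brighter probe was well above background in 3 of 8 sorted pools and, for the reference, on 5 of 8 arrays. Its ratios were -0.66, -0.62, -0.53 and -0.43 in rostral and -0.51, -0.31, -0.49 and -0.31 in caudal pools. All 8 lay below 0 and the parts overlapped. The mean was -0.48 (SE 0.05), and -1.47 in the Feature Extraction processed signals, so the size of the difference is not settled for so dim a probe. The other probe of Ptch1 was well above background in 1 of 8 sorted pools and on none of the reference arrays, with ratios of -0.35 to 0.32, and gives no usable value.

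Hhip, the membrane protein that binds and sequesters the ligand and another target of the pathway, was measured by only 1 of its 2 probes. The probe that the rule finds was well above background on no array in either channel, and its ratios of -0.18 to 0.50 give no level. The probe outside the rule was well above background in both channels on all 8 arrays. There the ratios were -3.57, -3.65, -3.48 and -3.30 in rostral pools and -3.27, -3.34, -3.31 and -2.29 in caudal pools. Every pool lay far below the reference, and caudal pool 4 stood above the other 7. The parts overlapped. The mean was -3.28 (SE 0.12, 9.69-fold lower), 11.3-fold lower in rostral and 8.30-fold lower in caudal pools. In the Feature Extraction processed signals it was -4.09. The rostral minus caudal difference was -0.45 (SE 0.24).

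Boc and Cdon, the related cell-surface co-receptors that bind the ligand together with Patched, are given next. Boc had ratios of -1.07, -1.68, -1.64 and -1.59 in rostral and -2.47, -2.12, -2.47 and -1.70 in caudal pools. Its mean was -1.84 (SE 0.11, 3.59-fold lower than the reference). The parts did not overlap, though narrowly, since the lowest rostral pool was at -1.68 and the highest caudal pool at -1.70. Boc was 1.62-fold higher in rostral pools (0.70, SE 0.21), with 0.92 among the arrays of slide row 1 and 0.47 among those of row 2, and it was not among the probes called. Cdon was called higher than the reference by a small difference. Its ratios were 0.27, 0.42, 0.03 and -0.01 in rostral and 0.16, 0.00, 0.16 and 0.09 in caudal pools, with a mean of 0.14 (SE 0.05, 1.10-fold higher). That mean was 0.07 to 0.47 over the alternatives, the highest with median centring in place of loess. The call was lost within slide row 2, with no filter on dim probes, without the intensity trend, and without rostral pool 1 or 2 or caudal pool 1, 3 or 4 (means of 0.10 to 0.14 without 1 of these pools). The parts overlapped (0.07, SE 0.11). The Cdon probe outside the rule had a mean of 0.01 (SE 0.13) and spread from -0.92 to 0.68 over the pools.

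Among the other receptors, co-receptors and surface modulators, limma called 4 of 7 lower and 2 higher than the reference (median -1.88). Lrp2, an endocytic receptor that binds Shh, was at -3.77 (SE 0.19, adjusted p = 1.53e-07), and Gas1, a co-receptor that acts alongside Boc and Cdon, at -2.03 (SE 0.09, adjusted p = 7.57e-08). The glypican Gpc3, which competes with Patched for the ligand, was at -2.28 (SE 0.09, adjusted p = 2.1e-08). It was also the 1 gene of 6 tested that was called between the parts, with ratios of -1.81, -1.84, -1.63 and -1.81 in rostral and -2.87, -2.51, -3.24 and -2.55 in caudal pools. The groups did not overlap, and Gpc3 was 2.03-fold higher in rostral pools (1.02, SE 0.17, limma adjusted p = 0.0148). With the replicate number as a block the limma adjusted p was 0.0641, and over all alternatives it was 0.0102 to 0.293.

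Smo, the transducer that Patched restrains, was lower in every sorted pool. Its ratios were -1.70, -2.0, -1.60 and -1.88 in rostral and -1.56, -1.84, -1.66 and -1.58 in caudal pools. The mean was -1.73 (SE 0.05, 3.31-fold lower than the reference) and the parts overlapped (-0.14, SE 0.10). The Smo probe outside the rule gave the same direction and a smaller difference, -0.57 (SE 0.06, 1.48-fold lower), with all 8 pools between -0.77 and -0.39.

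The proteins that act between Smo and the Gli factors were divided. Of 18 tested, limma called 6 lower and 5 higher than the reference (median -0.02). The pair that tethers to Smo at the base of the cilium was far below the reference, Evc2 at -2.51 (SE 0.09, adjusted p = 1.35e-08) and Evc at -2.28 (SE 0.09, adjusted p = 3.81e-08). Another probe of Evc2, well above background in none of the sorted pools, gave -0.74. Kif7, the ciliary kinesin that carries Gli proteins, was at -1.02. Sufu, which binds and restrains Gli proteins, was at -0.06 (adjusted p = 0.748), and Gpr161, a ciliary receptor that dampens the pathway, at -0.13 (adjusted p = 0.117). Prkacb, a catalytic subunit of protein kinase A, was the 1 gene of these 18 called between the parts, 1.28-fold higher in rostral pools (0.35, SE 0.07, limma adjusted p = 0.0316). Another of its probes gave 0.43 (adjusted p = 0.0123). The first probe lost its call in 11 of 21 alternatives (limma adjusted p from 0.020 to 0.430).

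The Gli transcription factors were all below the reference. Gli1, an activator and direct target, had ratios of -2.20, -1.99, -2.44 and -1.24 in rostral and -1.73, -1.64, -1.64 and -1.95 in caudal pools. The mean was -1.85 (SE 0.12, 3.61-fold lower). Rostral pool 4 was the highest of all 8, the other 3 rostral pools were the lowest, and the parts overlapped (-0.23, SE 0.23). Gli2, the main activator at the start of a response, had ratios of -2.10, -1.75, -1.92 and -1.68 in rostral and -1.77, -1.70, -2.0 and -1.73 in caudal pools. Its mean was -1.83 (SE 0.07), but the sorted cells were well above background in none of the 4 rostral pools and 1 of 4 caudal pools, against all 8 arrays for the reference. In the rostral pools Gli2 was at least 3.58-fold lower than the reference, a bound that rests on the lowest signal well above background and is open to dye bias. The Feature Extraction processed signals gave a mean of -4.39 for Gli2.

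Gli3, which acts mainly as a repressor, was the 1 member called between the parts, a call given as a description. Its ratios were -3.45, -3.67, -3.44 and -3.29 in rostral and -1.06, -1.49, -1.01 and -1.10 in caudal pools, means of -3.46 ± 0.16 and -1.17 ± 0.22 (SD, n = 4 each). Both parts lay below the reference, 11.0-fold in rostral and 2.24-fold in caudal pools, and the groups stood far apart. The level in caudal pools was 4.91-fold that in rostral pools (-2.30, SE 0.13). Only 24 probes of those tested (0.0651%) had a difference of this size or more, Gli3 among them, while the median absolute difference was 0.12. Gli3 and Boc were the 2 members whose ratios did not overlap between the parts, which held for 9.71% of all probes tested. The Gli3 difference lay between -2.40 and -2.23 under every alternative tried and was -2.28 and -2.31 among the arrays of slide rows 1 and 2. Within those rows, with 2 pools a part, limma called neither Gli3 nor any other probe (4126 and 3990 probes at an unadjusted p below 0.05).

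The channels were also read separately for these members. In the sample channel the normalized log2 intensity of Gli3 was 9.49, 9.21, 9.59 and 9.66 in rostral and 11.94, 11.38, 12.02 and 11.81 in caudal pools, a difference of -2.30. In the reference channel it stayed between 12.86 and 13.03 on all 8 arrays. Boc showed a sample-channel difference of 0.80 with a reference difference of 0.10. For Shh the sample channel ran from 8.99 to 10.20, and the reference from 7.89 to 8.06. For Gli1 the sample channel ran from 9.59 to 11.21, with rostral pool 4 the highest, and the reference from 12.02 to 12.45.

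**Figure D2:**
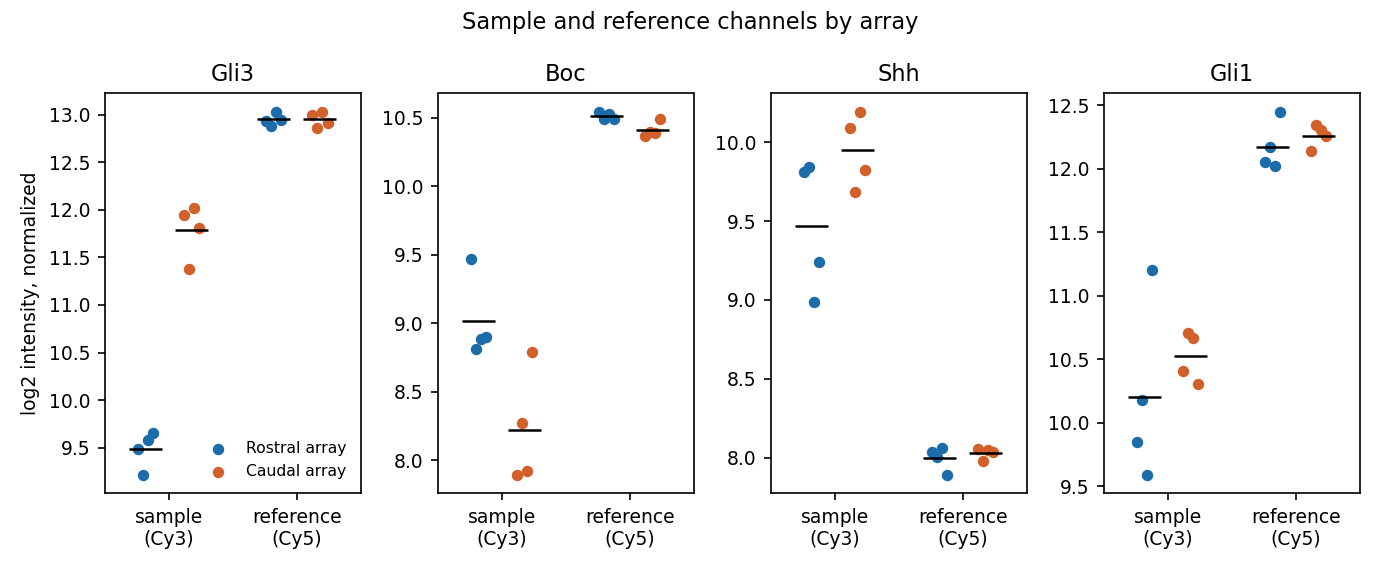
Normalized log2 intensity (vertical axis, a separate scale for each gene) in the sample channel (Cy3) and the reference channel (Cy5) for Gli3, Boc, Shh and Gli1, 1 point per array and a line at each mean. For Gli3 the rostral and caudal sample values stand apart by 2.30 while the reference values lie within 12.86 to 13.03.

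Promoter sequences are shown for the Gli factors Gli3 and Gli2 and for the pathway targets Hhip and Ptch1. Mean ratios lay below 0 for Gli3, Gli2, the brighter Ptch1 probe and the Hhip probe outside the rule. RefSeq's table (GRCm38.p6) held 6 of the 9 genes, and the 250 bases before the start site are printed 5′ to 3′ on the gene's strand. They lie at chr13:15463473-15463722 (plus strand) for Gli3, chr1:119053620-119053869 (minus) for Gli2, chr8:80058009-80058258 (minus) for Hhip and chr13:63565736-63565985 (minus) for Ptch1. Capitals mark GC boxes, GGGCGG or its reverse complement CCGCCC.
Gli3: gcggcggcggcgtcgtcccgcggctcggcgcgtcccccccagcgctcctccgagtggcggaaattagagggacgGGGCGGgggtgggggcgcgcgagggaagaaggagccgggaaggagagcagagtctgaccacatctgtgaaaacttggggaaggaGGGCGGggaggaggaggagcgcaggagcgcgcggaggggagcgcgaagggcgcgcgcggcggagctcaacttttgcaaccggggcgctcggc
Gli2: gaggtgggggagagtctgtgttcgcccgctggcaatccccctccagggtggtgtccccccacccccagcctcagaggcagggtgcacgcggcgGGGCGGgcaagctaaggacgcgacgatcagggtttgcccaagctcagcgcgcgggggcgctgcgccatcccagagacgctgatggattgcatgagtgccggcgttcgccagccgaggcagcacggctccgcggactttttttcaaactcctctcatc
Hhip: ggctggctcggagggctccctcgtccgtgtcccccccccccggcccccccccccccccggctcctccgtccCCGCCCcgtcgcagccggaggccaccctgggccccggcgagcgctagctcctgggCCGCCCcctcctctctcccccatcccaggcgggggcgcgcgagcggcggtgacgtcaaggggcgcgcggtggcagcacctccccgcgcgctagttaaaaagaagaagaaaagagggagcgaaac
Ptch1: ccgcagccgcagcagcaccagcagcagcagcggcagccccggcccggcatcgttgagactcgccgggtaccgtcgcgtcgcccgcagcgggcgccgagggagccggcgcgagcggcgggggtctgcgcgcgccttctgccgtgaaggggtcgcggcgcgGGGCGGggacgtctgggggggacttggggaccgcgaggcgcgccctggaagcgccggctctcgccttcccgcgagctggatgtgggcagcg
Gli3 and Hhip each held 2 GC boxes and Gli2 and Ptch1 held 1 each, while the Smo and Cdon windows held 0. A GC box was found in 10756 of 32851 promoter windows (32.7%). The consensus Gli site, GACCACCCA or TGGGTGGTC on the other strand, was found in 0 of the 6 windows and in 74 of 32851 (0.225%), which says only that these letters are not in these windows. CpG pairs numbered 34 in Gli3, 22 in Gli2, 28 in Hhip, 41 in Ptch1, 15 in Smo and 1 in Cdon, against a median of 6 over all windows.

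Genes that respond to Hedgehog signals in the neural tube were next compared, leaving out the members themselves. Of 12 tested, limma called 8 lower and 3 higher than the reference (median -1.22). Foxa2, the floor plate transcription factor gene induced by Shh, was at 3.70 (SE 0.03, adjusted p = 3.92e-12) and 4.18 by another probe. Olig2, of motor neuron and oligodendrocyte progenitors, was at -3.59 (SE 0.11, adjusted p = 6.32e-09), and Nkx6-2, a ventral progenitor gene, at -3.10. The cyclin gene Ccnd1, a proliferation target, was at -2.38. Pax7, a gene of the dorsal neural tube that Hedgehog signals repress, was at -2.27. Pax6, likewise repressed, was well above background in no pool by its brighter probe and in 1 of 8 by the other.

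Of these 12 genes, 4 were called between the parts by their brightest probe, 2 higher in caudal and 2 higher in rostral pools. Foxa2 was not called by that probe (-0.21, SE 0.06, limma adjusted p = 0.112). Its other probe was called, 1.32-fold higher in caudal pools (-0.40, SE 0.09, limma adjusted p = 0.0491). By either Foxa2 probe the ratios of the parts did not overlap, narrowly so for the brightest. Nkx6-1, a ventral progenitor gene, had ratios of -2.56, -1.83, -3.48 and -2.55 in rostral and 0.20, -0.42, -0.28 and 0.29 in caudal pools, and was 5.87-fold higher in the caudal pools (-2.55, SE 0.32, limma adjusted p = 0.00524). Nkx2-9, of the cells beside the floor plate, had ratios of -0.91, 1.19, -0.40 and -0.00 in rostral and 2.32, 2.19, 1.97 and 2.34 in caudal pools, and was 4.71-fold higher in the caudal pools (-2.24, SE 0.38, limma adjusted p = 0.0159). Its call was lost without caudal pool 1 or caudal pool 4 (limma adjusted p = 0.0527 and 0.0524, over all alternatives 0.00306 to 0.379). In Nkx6-1 and Nkx2-9 the parts did not overlap.

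Nkx2-2, a ventral gene that depends on strong Shh signals, went the other way. Its ratios were -1.73, -1.88, -1.95 and -1.91 in rostral and -2.80, -2.73, -3.29 and -2.86 in caudal pools, 2.07-fold higher in the rostral pools (1.05, SE 0.14, limma adjusted p = 0.00577). Another probe gave 1.01 (adjusted p = 0.0940). Mycn, a proliferation gene that Shh induces, was 1.40-fold higher in rostral pools (0.48, SE 0.08, limma adjusted p = 0.0155). The Hedgehog response genes that differed between the parts thus did so in both directions.

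**Figure D3:**
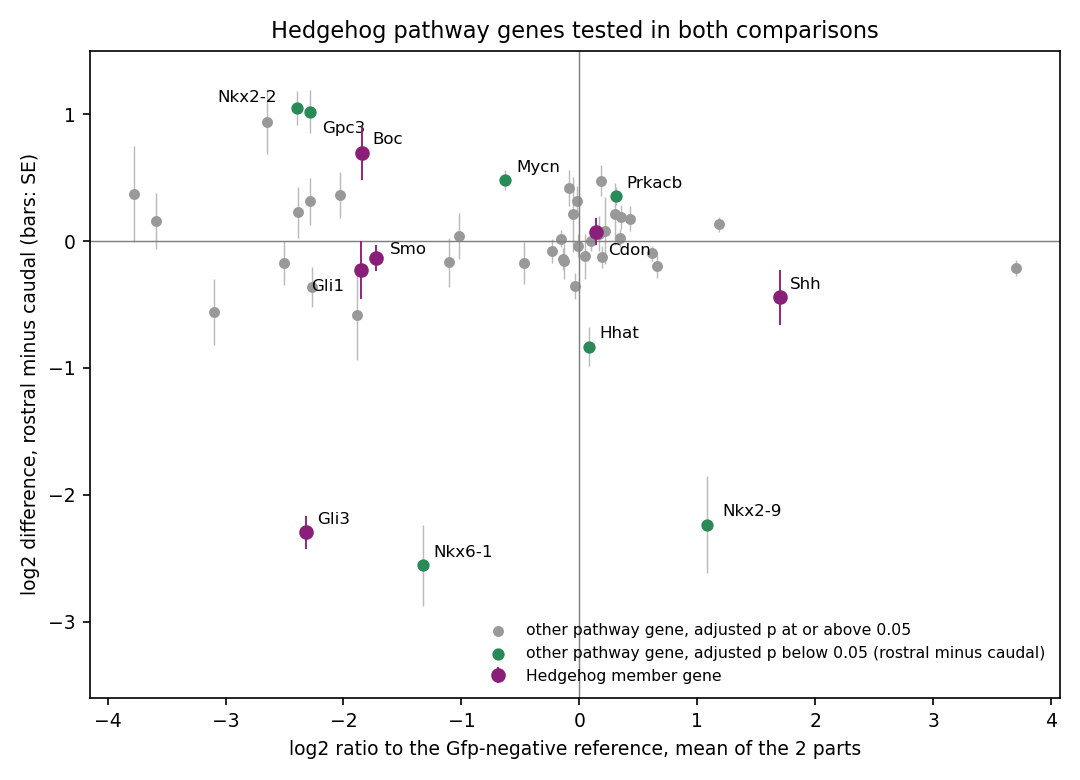
Log2 ratio to the reference (horizontal axis, mean of the 2 parts) against the log2 rostral minus caudal difference (vertical axis, bars are SE) for pathway genes tested in both comparisons, with members in purple and other genes called between the parts in green. Gli3 (-2.31, -2.30) and Nkx6-1 (-1.33, -2.55) lie low on the left, Nkx2-9 low on the right, and Shh is the member farthest to the right.

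Gli3 is known to be expressed in neural progenitors, and markers of other cells in the sorted pools were set beside it. Of 11 progenitor and radial glia markers tested, 10 were lower than the reference (median -3.23), and Fabp7, Slc1a3, Sox2, Sox9 and Nes were well above background in all 8 sorted pools. The summed sample-channel level of this list was 16.21 to 16.42 (log2) in rostral and 16.21 to 16.48 in caudal pools. Over the 11 markers tested, the median rostral minus caudal difference in ratio was -0.02. Between the parts limma called Vim higher in caudal pools (-0.63, adjusted p = 0.0213) and Ptprz1 higher in rostral pools (1.01, adjusted p = 0.0122). Their mean sample-channel levels in rostral and caudal pools were 14.14 and 14.77 for Vim and 13.60 and 12.66 for Ptprz1. These moved the sum in opposite directions. All 8 cell cycle markers were lower than the reference, and limma called none of them between the parts. Their summed level was 14.94 to 15.08 in rostral and 14.84 to 14.97 in caudal pools, most of it Pcna, whose own mean was 14.57 and 14.52.

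**Figure D4:**
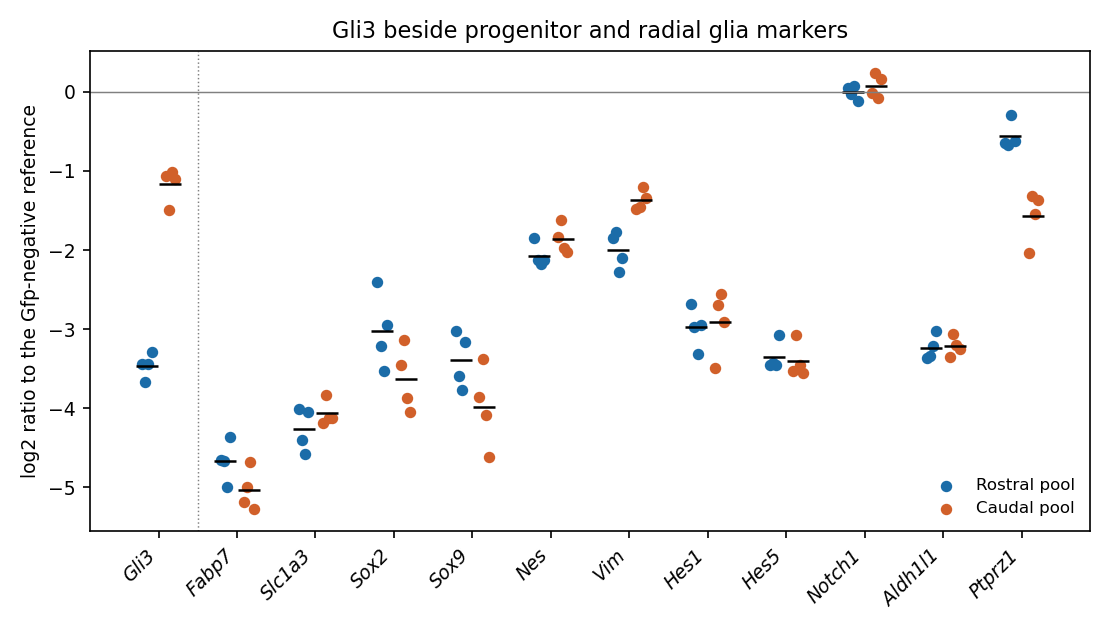
Log2 ratio to the reference (vertical axis) of Gli3 and of the 11 progenitor and radial glia markers tested (horizontal axis), 1 point per pool and a line at each mean. The rostral and caudal pools are parted for Gli3, Vim and Ptprz1, the last in the opposite direction.

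Markers of other neurons also differed between the parts, in both directions. Of 5 glutamatergic and red nucleus markers, limma called Pou4f2 6.85-fold higher in caudal pools (-2.78, adjusted p = 0.00148) and Tbr1 higher in rostral pools (1.84, adjusted p = 0.0455). Of 7 GABAergic markers, it called Tal2 3.45-fold higher in caudal pools (-1.79, adjusted p = 0.00148). Tal1 (-1.01), Gata3 (-1.08) and Pou4f1 (-0.54) were also higher in every caudal than in every rostral pool, and Gad2 (1.09) in every rostral than in every caudal pool, with no call. Against the reference, limma called 4 of the glutamatergic and red nucleus markers lower and 1 higher (Slc17a6, 0.67, adjusted p = 2.58e-05). Of the GABAergic markers it called 5 lower and 1 higher (Slc32a1, 0.28, adjusted p = 0.0107), and Gad2 was at -0.09 with no call. Pou4f2 (-5.59) and Tal2 (-4.92), the lowest of their lists, were far below the reference, and both were well above background in all 8 sorted pools. For the glutamatergic list the summed level was 14.66 to 15.35 in rostral and 14.84 to 14.99 in caudal pools. Most of it was Slc17a6, whose own sample-channel level ran from 14.31 to 15.05 over all 8 pools. For the GABAergic list the summed level was 17.23 to 17.92 in rostral and 16.75 to 17.37 in caudal pools. Most of that was Slc32a1, whose own level ran from 16.51 to 17.73. Both genes were above the reference, so the sums say little about the markers below it. Of 5 motor and oculomotor markers, 1 was called, Isl1, higher in rostral pools (0.65, limma adjusted p = 0.0188).

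Markers of regions along the axis moved with the parts as well. Of 7 hypothalamic and diencephalic markers tested, 6 were higher in rostral pools (median difference 2.31), and their summed sample-channel level was 11.80 to 12.94 in rostral and 9.91 to 10.14 in caudal pools. All 8 of this list tested against the reference were lower than it. Of 5 hindbrain and isthmic markers, 3 were higher in caudal pools (En1, En2 and Pax8) and 1 in rostral pools (Gbx2). En1 and En2, which midbrain dopaminergic neurons also express, were above the reference, at 2.09 and 1.89, whereas Pax8 (-3.28) and Gbx2 (-1.31) were below it. The summed level of the list was 16.78 to 17.25 in rostral and 17.78 to 17.92 in caudal pools, most of it En2, whose own mean was 16.79 and 17.67. Hoxa2, of the hindbrain, was well above background in 1 of 8 sorted pools. The summed level of pericyte and mesenchyme markers ran from 11.29 to 14.28 in rostral and 10.77 to 11.55 in caudal pools, rostral pool 2 being the highest. The part of these cells in the differences of Gli3, Boc and the other pathway genes was not tested.

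The genes whose 8 ratios lay closest to those of Gli3 were searched among 23413 tested probes of named genes, by root mean square difference. Gli3 was also the member with the largest ratio to the reference among the probes of the rule, so 1 search served for both. The closest was Egfr, the epidermal growth factor receptor gene, at 0.61 (Pearson r = 0.90 over 8 pools), with means of -3.18 in rostral and -1.78 in caudal pools. Kcne1l (0.70), Klhl14 (0.71), Col2a1 (0.73), a cartilage collagen gene, and Mfng (0.74), a modifier of Notch receptors, followed, with r between 0.81 and 0.88. All 5 were lower in rostral than in caudal pools, as the search itself sets. The pools share a reference, a slide and the split into parts, and these correlations are given as descriptions.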

How the data were processed

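RNA of 4 rostral and 4 caudal pools was hybridised on 2-colour Agilent arrays, all on 1 slide with 1 scan. The scanner files hold spot and background intensities that, per the file headers, the authors read out in Feature Extraction 10.7.3.1, with no normalization in the columns used. The submitters' processing notes also name RMA, with no version or role. The 8 value columns of a deposited series table match no sample label and were left out, its probe annotation alone being read.

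In R 4.3.3 with limma 3.58.1 and data.table (version 1.17.8), median spot intensities were background-corrected by normexp (offset 50), followed by loess within arrays (control and outlier spots at weight 0). Spots of a probe were averaged without outlier spots. The log2 ratio, sample over reference, was computed from these deposited intensities, so no deposited log2 value was used. A probe was tested against the reference if well above background in either channel on at least 4 of 8 arrays, and between the parts if so in the sample channel. Each channel's intensities were read after loess and quantile normalization of the array averages. The intensity-trended limma fit ran on all probes, with Benjamini-Hochberg adjustment over all of them and calls at an adjusted p below 0.05. Every p-value is 2-sided and measures the spread between these pools. The reference counts as 1 control sample, its own spread is left out, and it carried Cy5 on every array, so ratios include any dye effect.

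The members and lists were chosen with earlier results of these data known. The text names all 9 members with every probe, and of each other pathway list the genes called between the parts and the 2 with the largest ratios to the reference. A gene is given by its brightest probe, and genes outside this rule that are named were picked after their values were seen. The rostral minus caudal fit was tested on simulated data, and the fit against the reference was not. Alternatives covered background, normalization, filters, 1 probe per gene, slide row, replicate block, the sample channel alone and each pool left out. Figures were drawn with Python 3.11.15 and matplotlib 3.10.9.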

Additional observations from a re-analysis of the deposited data

Results flagged for a closer look

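Of 54 groups of 4 pools examined, 4 held a pool that stood far from the other 3, and chance flags about 1 group in 20. Hhip, by the probe outside the rule, was at -2.29 in caudal pool 4, against -3.34 to -3.27 in the other caudal pools. Boc was at -1.07 in rostral pool 1, against -1.68 to -1.59 in the other rostral pools. Gpc3 was at -1.63 in rostral pool 3, against -1.84 to -1.81 in the others. Evc was at -2.40 in rostral pool 3, against -2.04 to -2.03 in the others. All are log2 ratios to the reference.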

How the results depend on the processing

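Over 35 values of named probes, 672 alternative values were computed, of which 622 kept their direction and their side of the threshold, 40 lost the call, 0 gained one and 10 changed sign. All 10 changes of sign were in Cdon. Its probe outside the rule, at 0.01 against the reference, gave -0.22 in the Feature Extraction processed signals, -0.040 with a normexp offset of 10, -0.036 within slide row 2 and -0.082 to 0.11 with 1 pool left out, and its rostral minus caudal difference was -0.0090 within slide row 1. The Cdon probe of the rule, at 0.07 between the parts, gave -0.12 within slide row 2 and -0.0065 (without rostral pool 2) to 0.13 with 1 pool left out. Against the reference 7 or 8 member genes were called under every alternative. With 1 probe per gene 13511 genes were called in place of 25655 probes, fewer features having been tested. Median centring called 16424 probes higher and 9598 lower (63.1% higher, against 51.7% with loess). Between the parts 1236 probes were called. Leaving out 1 pool gave 647 to 1071 (647 without caudal pool 1, 648 without caudal pool 4, 763 without rostral pool 4, 815 without rostral pool 3 and 818 without caudal pool 3). Within slide rows 1 and 2, with 2 pools a part, limma called 0 and 0 probes (4126 and 3990 at an unadjusted p below 0.05) and 0 and 0 member genes (2 and 2). With the replicate number as a block 605 probes were called, and Gli3 remained among them. Pools of the same number deviated together at r of -0.02 to 0.03 across probes, so the numbers do not pair the pools, and not every pool correlated best with its own number. Brightness limits Ptch1, Gli2 and the Hhip probe of the rule, which were not well above background in most sorted pools.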
